A study of Mus musculus with 12 samples.

Results

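Interferons are secreted cytokines through which a cell that has sensed foreign nucleic acid, or an activated lymphocyte, warns its neighbours. The 7 genes described here are the ligand genes Ifnb1 (interferon beta), Ifng (interferon gamma) and Ifna13 (an alpha interferon), and the receptor genes Ifnar1, Ifnar2, Ifngr1 and Ifngr2. They were selected on their names once results of these arrays, among them the level of interferon-induced genes, were known, so their values are a description. With dim probes included they have 10 probes among the 41174 probes and 28781 gene names of the array. Of these 10 probes, 8 probes of 6 genes entered the test over 26592 probes, which asked for a signal clear of background on 4 or more arrays. The probe of Ifnb1 and 1 of the 2 Ifng probes did not, and their values are given array by array.

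The samples were liver tissue of male, 3-month-old C57BL/6 mice. All 12 were labelled as GR knockout, from mice that lack the glucocorticoid receptor in the liver, so the control groups carry the deletion as well. The 3 groups held 4 samples each, from mice given PBS or either of a pair of adeno-associated viral vectors. The vector encoded the marker protein GFP in the AAV-GFP group, and in the AAV-hGRB group human GR beta, the receptor's alternatively spliced isoform. AAV-hGRB against AAV-GFP compares virus with human GR beta to virus with GFP, so an effect of either protein would enter it. AAV-GFP against PBS reads the virus with GFP, and AAV-hGRB against PBS the virus with human GR beta. The sources used here give neither the Cre driver behind the liver deletion nor the vector's dose and promoter, nor the time from injection to sampling. No group with intact GR was analysed here, so the deletion itself could not be checked. Hepatocyte genes identified the tissue: 9 of 10 markers were tested, and their mean level lay between 6.78 and 8.18 on all 12 arrays on the log2 scale defined below. AAV-GFP replicate 3 stood apart at 6.78, where the other arrays had 7.5 or more.

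Type I interferons, the alpha family and interferon beta, all bind a receptor made of Ifnar1 and Ifnar2. That receptor works through the kinases Tyk2 and Jak1 and a transcription factor complex that includes Stat2 and Irf9 and switches on antiviral genes. Interferon gamma, the type II interferon, comes mainly from T and NK cells and binds a receptor of Ifngr1, which holds the ligand, and Ifngr2, which brings Jak2. Most cells of the liver carry both receptors, whereas the ligand genes are nearly silent until a cell is stimulated.

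The promoters of the ligand and the receptor genes differed in base composition, and that of Ifnb1 is shown because its readings stand apart below. RefSeq promoters on GRCm38.p6 run from 250 bases before to 50 after each gene's start, and all 7 genes matched. The ligand promoters were 42.7% G and C for Ifnb1, 46.0% for Ifng and 34.3% for Ifna13. The receptor promoters were richer, with 68.3% for Ifnar1, 57.0% for Ifnar2, 60.3% for Ifngr1 and 74.3% for Ifngr2, beside a median of 52.7% over all 32851 promoters. The dinucleotide CG occurred 3, 7 and 1 times in the ligand promoters and 26, 18, 14 and 31 times in the receptor promoters, in the same order, with a median of 7. The 150 bases before the start of Ifnb1 (chr4:88522795-88522944, minus strand) and of Ifnar1 (chr16:91485065-91485214, plus strand) show the contrast. Capitals in the first mark AACTGAAAG and GGAAATTCC, elements of the well-known virus-inducible enhancer that binds interferon regulatory factors and NF-kappaB, and capitals in the second mark each CG.
Ifnb1: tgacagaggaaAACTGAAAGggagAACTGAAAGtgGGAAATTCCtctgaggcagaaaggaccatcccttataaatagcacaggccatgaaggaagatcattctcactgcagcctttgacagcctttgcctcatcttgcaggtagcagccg
Ifnar1: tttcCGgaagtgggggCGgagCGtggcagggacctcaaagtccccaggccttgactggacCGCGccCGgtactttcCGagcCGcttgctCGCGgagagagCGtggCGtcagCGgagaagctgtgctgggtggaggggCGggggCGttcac

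Those 2 elements were picked after reading the Ifnb1 sequence, so their presence there is a description. AACTGAAAG, searched on both strands, started 139 and 126 bases before the gene and was found in 0.548% of all promoters, of which 2 held it at least 2 times. GGAAATTCC started 115 bases before the gene and was found in 0.317% of promoters. Neither matched in the other 6 genes. Of the motifs listed with the gene lists, the interferon-stimulated response element, with 10 positions, was in 3.44% of promoters and in 0 of the 7. TTCNNNGAA, the gamma-activated site, was in 8.3% of promoters and matched Ifng, Ifna13, Ifnar1 and Ifnar2. The classical NF-kappaB site, also 10 positions, was in 0.155% of promoters and matched Ifngr2 on the reverse strand. A match is a run of letters and not a measured binding site.

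Levels below are log2 of the scanner's processed signal minus the 75th percentile of the same array, so 0 is the signal at that percentile. They compare arrays for the same probe and not different probes. Well above background is the scanner software's own mark. The 75th percentile signal ran from 209.3 to 597.7 units over the 12 arrays, and 54.9% to 66.3% of probes were well above background. Both were lowest on AAV-GFP replicate 3.

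Ifnb1 was well above background on 2 arrays, both from the AAV-hGRB group. Interferon beta is the type I interferon that stimulated tissue cells make early, and its only probe on the array (A_51_P144180, chr4:87925845-87925904 on mm7, minus strand) had processed signals of 6.8, 4.9, 5.5 and 6.9 units in PBS replicates 1 to 4. In the AAV-GFP replicates the signals were 4.5, 5.5, 4.8 and 4.1 units, and in the AAV-hGRB replicates 4.6, 29.3, 78.6 and 6.1. AAV-hGRB replicates 2 and 3 were well above background and the other 10 arrays were not, so the AAV-hGRB group overlapped both controls through replicates 1 and 4.

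Scaled to each array, the Ifnb1 level was -6.41, -4.03, -2.93 and -6.52 in AAV-hGRB, a mean of -4.97 ± 1.78 (SD, n = 4). It was -6.39 ± 0.63 (SD, n = 4) in AAV-GFP and -6.34 ± 0.28 (SD, n = 4) in PBS. The measured mean was 1.42 higher in AAV-hGRB than in AAV-GFP and 1.37 higher than in PBS, and these differences were 0.74 and 0.68 without AAV-hGRB replicate 3. No fold is given, because the control arrays and AAV-hGRB replicates 1 and 4 carry only a bound. The dimmest probes still well above background lay between -5.23 and -3.44 over the 12 arrays. With the controls raised to the bound of their own array, the AAV-hGRB mean was not higher. That mean kept AAV-hGRB replicates 1 and 4 at their measured levels, below their own bounds of -4.53 and -5.11. Because only the controls were raised, this does not decide a direction.

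The arrays were spread over 6 slides, read from the barcode. AAV-hGRB replicate 3 shared slide 6 with AAV-GFP replicate 3 and PBS replicate 3, and its Ifnb1 signal was 78.6 units against 4.8 and 5.5 there. Neither control was well above background, and the dimmest probes that were lay at -3.44 and -3.98 on those arrays, below the -2.93 of Ifnb1 on AAV-hGRB replicate 3. On slide 5 the signals were 4.6 units on AAV-hGRB replicate 1, 5.5 on AAV-GFP replicate 2 and 6.9 on PBS replicate 4, none well above background. AAV-hGRB replicates 2 and 4 lay on slide 3, so the detected and the undetected signal of 29.3 and 6.1 units came from 1 slide.

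**Figure D1:**
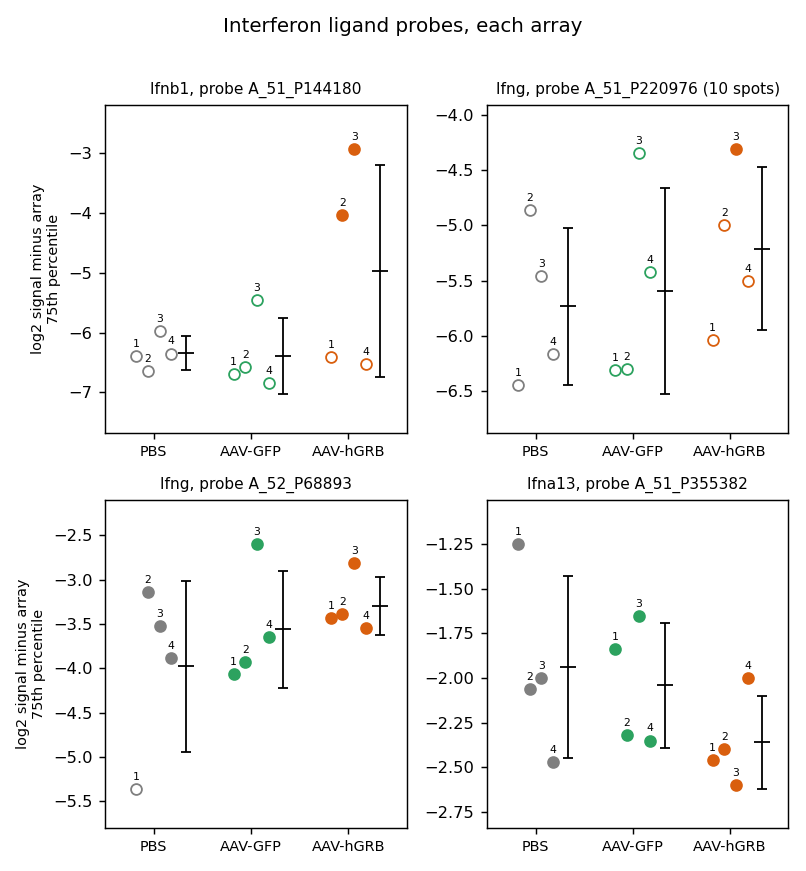
Levels of the 4 ligand probes on each array, as log2 signal minus the array's 75th percentile (vertical axis) for PBS, AAV-GFP and AAV-hGRB; numbers are replicates, filled points are well above background, open points are not, and bars are the mean ± SD of 4 arrays. Ifnb1 is filled on AAV-hGRB replicates 2 and 3 alone, at -4.03 and -2.93, while Ifng and Ifna13 overlap in all 3 groups.

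Interferon gamma, which activates macrophages and raises antigen presentation, was close to the detection limit. Its better probe (A_52_P68893, chr10:117841087-117841146 on mm7, plus strand) was well above background on 11 arrays, the exception being PBS replicate 1. Levels in PBS were -5.36, -3.14, -3.52 and -3.89, a mean of -3.98 ± 0.97 (SD, n = 4). Levels in AAV-GFP were -4.06, -3.93, -2.60 and -3.65, a mean of -3.56 ± 0.66 (SD, n = 4). Levels in AAV-hGRB were -3.43, -3.39, -2.81 and -3.55, a mean of -3.30 ± 0.33 (SD, n = 4). The order of the means was PBS, AAV-GFP, AAV-hGRB, and neighbouring means lay within their SDs. The groups overlapped in every comparison. AAV-hGRB was 0.26 above AAV-GFP and 0.68 above PBS on the log2 scale (SE 0.45 each), and the second difference was 0.22 without PBS replicate 1.

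The other Ifng probe (A_51_P220976, chr10:117840860-117840919 on mm7) was printed in 10 spots, which gives a look at the error within an array. The SD between its spots ran from 0.2 to 1.32 log2 units, with a median of 0.52. The highest was on AAV-GFP replicate 1, where the scanner software flagged 2 of the 10 spots as outliers. These SDs and the counts that follow include flagged spots, which the levels leave out. On 8 arrays 0 of the 10 spots were well above background. The rest had 9 spots on AAV-hGRB replicate 3, 3 on AAV-hGRB replicate 2, 2 on AAV-GFP replicate 1 and 1 on PBS replicate 4. Scaled to each array, its level was -4.31 on AAV-hGRB replicate 3 and -4.35 on AAV-GFP replicate 3, the highest of the 12 and nearly tied. Before scaling the signals were 30.2 and 10.3 units. AAV-GFP replicate 3 had the lowest 75th percentile and 0 spots well above background, so the tie rests on scaling a signal near background. The better Ifng probe was highest on AAV-GFP replicate 3, at -2.60, and next on AAV-hGRB replicate 3, at -2.81. Before scaling these were 34.4 and 85.1 units.

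T and NK cell markers stood beside the Ifng readings as follows. Of 19 markers 15 were tested, 11 of them with a positive change from AAV-GFP to AAV-hGRB and a median of 0.41, and 0 were called. Among the brightest, the chemokine gene Ccl5 had a log2 difference of 1.15 (SE 0.44), the T cell receptor chain Cd3e of 0.02 (SE 0.30), the kinase Zap70 of -0.67 (SE 0.38) and the granule protein Nkg7 of 0.70 (SE 0.34). Their mean level ran from -3.07 to -2.20 in PBS, -2.79 to -2.40 in AAV-GFP and -2.60 to -1.76 in AAV-hGRB, where replicate 3 was highest. Some markers were singled out after their values were seen. The granzymes Gzma and Gzmb had a log2 difference of 1.52 (SE 0.65) and 1.14 (SE 0.58). The 4 markers with a negative change were Zap70, Ncr1 (-0.66, SE 0.52), Cd4 (-0.30, SE 0.28) and Klrb1c (-0.16, SE 0.29). Cd8a, the co-receptor of cytotoxic T cells, was well above background on 3 AAV-hGRB arrays and 0 of the 8 control arrays, so it was not tested. Klrk1 and Eomes were above background on 0 arrays. PBS replicate 1, the lowest for Ifng, was also the lowest for these markers. That was not particular to them. PBS replicate 1 was also lowest for Kupffer cell and macrophage markers (1.41) and for genes induced by type I interferon (-0.47) and interferon gamma (0.85). AAV-hGRB replicate 3 was also highest for Kupffer cell and macrophage markers (3.31). The part of T and NK cells in the Ifng values was not tested, and in whole tissue fewer cells of a type and less RNA per cell cannot be told apart.

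Ifna13 was the member ligand whose probe was well above background on all arrays, and its mean level was lowest in AAV-hGRB. Whether that signal comes from Ifna13 RNA was not tested. Its probe lies at chr4:88047827-88047886 on mm7, minus strand. Levels were -1.25, -2.06, -2.0 and -2.47 in PBS, -1.84, -2.32, -1.65 and -2.35 in AAV-GFP, and -2.46, -2.40, -2.60 and -2.0 in AAV-hGRB. The means were -1.94 ± 0.51, -2.04 ± 0.35 and -2.36 ± 0.26 (SD, n = 4 each), and all groups overlapped. The change was -0.32 from AAV-GFP to AAV-hGRB, -0.10 from PBS to AAV-GFP and -0.42 from PBS to AAV-hGRB (SE 0.27 each).

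The alpha interferons are a family of close copies, so what a probe reads has to be seen in its sequence. The Ifna13 probe was set against the Ifna4 probe (chr4:88245816-88245875 on mm7, plus strand), the alpha probe that shares the most bases with it. Capitals mark bases that differ in the ungapped overlap.
Ifna13: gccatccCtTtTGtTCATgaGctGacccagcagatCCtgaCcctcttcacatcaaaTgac
Ifna4: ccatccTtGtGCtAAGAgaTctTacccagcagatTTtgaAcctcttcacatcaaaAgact
They were identical at 45 of 59 positions (76.3%). The Ifna4 probe was well above background on 1 array, PBS 1 of 4, and the Ifna13 probe on 12. The Ifna1 probe overlapped that of Ifna13 by 23 bases, 20 of them identical, and was well above background on 12 arrays. How far each probe also binds RNA of other alpha genes was not tested.

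The other ligand genes were not called either. The list held 18, of which 12 had a probe and 7 were tested, and 0 rose or fell in any comparison. From AAV-GFP to AAV-hGRB 2 of the 7 changes were positive, with a median of -0.33 beside -0.05 over all 26592 probes. Ifna9 had a log2 difference of -0.36 (SE 0.36), Ifnab of -0.67 (SE 0.50), Ifnz of -0.33 (SE 0.24) and Ifna1 of 0.02 (SE 0.59), none past the test. The array design lists several RefSeq transcripts for 3 of the 10 alpha probes, among them Ifna1 with 4, so such a probe can read several alpha genes. The probes of Ifna2 and Ifne, singled out after their values were seen, were above background on 0 arrays.

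The receptor genes were well above background on all 12 arrays and differed little between groups. Ifnar2, Ifnar1 and Ifngr2 lie close together on chromosome 16, with the probes at chr16:91444402-91444461, chr16:91557140-91557199 and chr16:91614083-91614142 on mm7, all on the plus strand. Ifngr1 lies apart, with its probe at chr10:19335421-19335480. Exon positions on mm7 were not used here.

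Ifnar1, the chain that binds Tyk2, had levels of 1.54, 1.02, 1.16 and 1.38 in PBS, a mean of 1.27 ± 0.23 (SD, n = 4). In AAV-GFP the levels were 1.34, 1.26, 0.32 and 1.58, a mean of 1.13 ± 0.56 (SD, n = 4). In AAV-hGRB they were 1.12, 1.08, 1.17 and 1.36, a mean of 1.18 ± 0.12 (SD, n = 4). AAV-GFP replicate 3 was the low array, at 260.4 units where the other 11 had 776.5 or more. The change from AAV-GFP to AAV-hGRB was 0.05 (SE 0.26), and -0.22 without that array. It was -0.14 within slide 5 and 0.85 within slide 6, which holds that array.

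Ifnar2, the chain that binds the type I ligands most tightly, was read by 2 probes. The brighter (A_52_P190405) had levels of 3.47, 3.67, 4.53 and 4.25 in PBS, 4.19, 4.18, 4.5 and 4.02 in AAV-GFP, and 4.09, 4.18, 3.91 and 4.09 in AAV-hGRB. The spread was widest in PBS and narrowest in AAV-hGRB, with means of 3.98 ± 0.49, 4.22 ± 0.20 and 4.06 ± 0.11 (SD, n = 4 each). The change was -0.16 from AAV-GFP to AAV-hGRB (SE 0.24), 0.24 from PBS to AAV-GFP and 0.08 from PBS to AAV-hGRB. The other probe (A_51_P338924, chr16:91455837-91455896 on mm7) gave -0.23, 0.29 and 0.06 (SE 0.29 each), the same directions. Its AAV-hGRB levels were 1.51, 1.51, 1.27 and 1.54. Soluble and membrane forms of Ifnar2 come from the same gene, and which form each probe reads was not examined.

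Ifngr1 had the smallest SE of the members. Levels were 3.08, 3.42, 3.41 and 3.94 in PBS, 3.20, 3.58, 3.63 and 3.50 in AAV-GFP, and 3.52, 3.56, 3.67 and 3.33 in AAV-hGRB. The means of 3.46 ± 0.36, 3.48 ± 0.19 and 3.52 ± 0.14 (SD, n = 4 each) differed by far less than their spread. The changes were 0.04, 0.02 and 0.06 in the 3 comparisons (SE 0.21 each), with PBS replicates 1 and 4 at the lower and the upper end.

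Ifngr2 was read by 2 probes as well. The brighter (A_52_P471395) had levels of 1.46, 1.48, 1.07 and 1.89 in PBS, 1.30, 1.53, 0.85 and 1.77 in AAV-GFP, and 0.78, 1.51, 1.80 and 1.64 in AAV-hGRB. The means were 1.47 ± 0.34, 1.36 ± 0.39 and 1.43 ± 0.45 (SD, n = 4 each), and the change from AAV-GFP to AAV-hGRB was 0.07 (SE 0.28). Within slides 5 and 6 it was -0.75 and 0.95, so the 2 pairs of arrays pointed in opposite directions. The dimmer probe (A_51_P196687), whose target spans 1153 bases of genome at chr16:91612093-91613245 on mm7, gave 0.30 from AAV-GFP to AAV-hGRB and 0.29 from PBS to AAV-hGRB (SE 0.27 each). For the second comparison the brighter probe gave -0.04, so the probes differed in sign there, by little more than 1 SE. Il10rb, the neighbouring receptor gene that interleukin-10 and lambda interferons share, had a log2 difference of -0.11 from AAV-GFP to AAV-hGRB (SE 0.29).

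**Figure D2:**
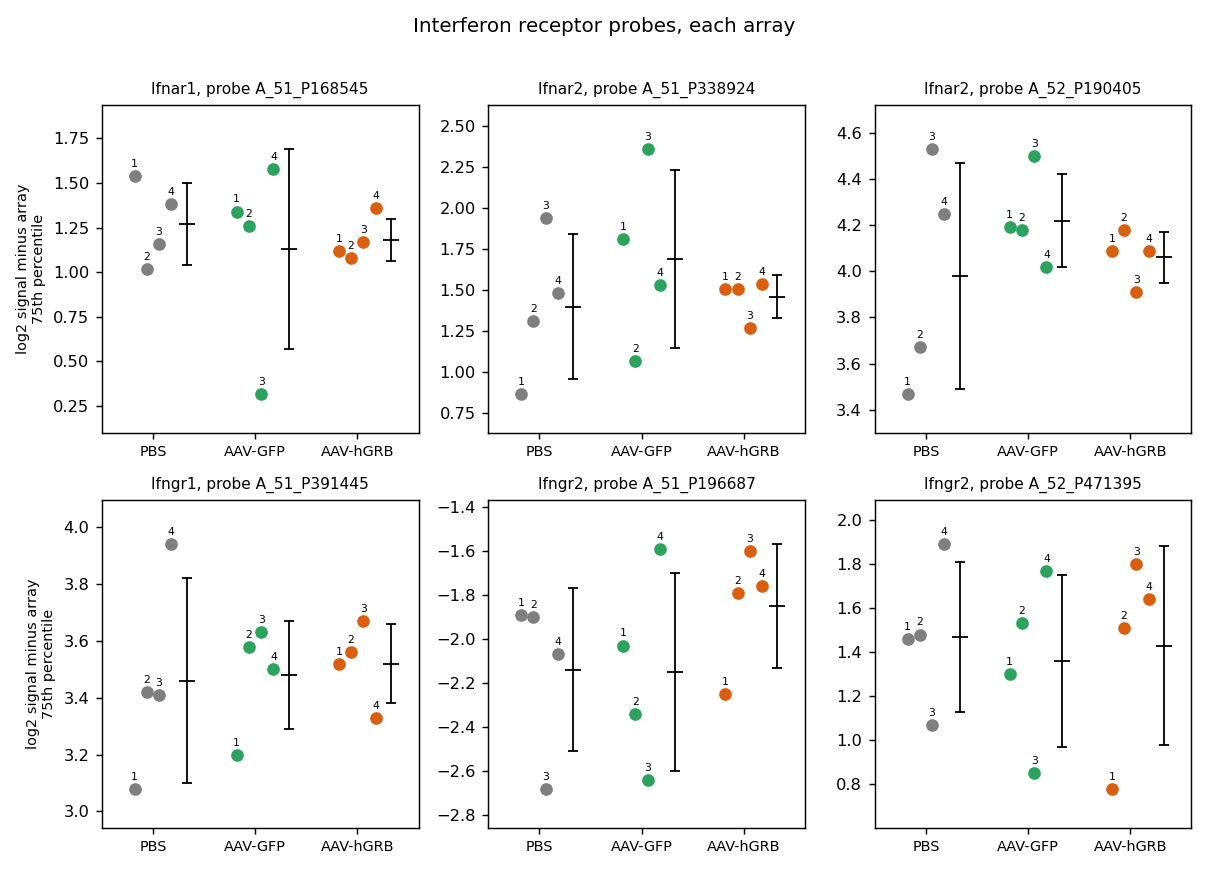
Levels of the 6 receptor probes on each array, as log2 signal minus the array's 75th percentile (vertical axis, scaled per panel) for PBS, AAV-GFP and AAV-hGRB; numbers are replicates, all points are well above background, and bars are the mean ± SD of 4 arrays. The groups overlap in all 6 panels, and AAV-GFP replicate 3 is the low point of Ifnar1 at 0.32.

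Over the 8 tested member probes the changes ran from -0.32 to 0.30 from AAV-GFP to AAV-hGRB, from -0.15 to 0.42 from PBS to AAV-GFP and from -0.42 to 0.68 from PBS to AAV-hGRB. Positive changes numbered 5, 4 and 5 of 8, where 43.5%, 50.6% and 42.8% of all tested probes were positive. The SE lay between 0.21 and 0.45, and its median over all probes was 0.31. In limma with Benjamini-Hochberg adjustment at 0.05, 0 of the 8 member probes were called in each comparison, and 0% of all 26592 probes were. At an unadjusted p under 0.05 the count was 0 of 8 in each comparison, and 892, 448 and 1553 over all probes. Likewise 0 of the 8 had groups that did not overlap, beside 2.98%, 0.94% and 4.59% of all probes. The 3 comparisons share arrays in pairs, so their values are not independent of each other. These counts do not show that the members were equal between groups, since with 4 arrays a group even changes of several SEs were not called. Irf7, singled out after its value was seen, had a log2 difference of 2.49 (SE 0.43) from AAV-GFP to AAV-hGRB and was not called.

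**Figure D3:**
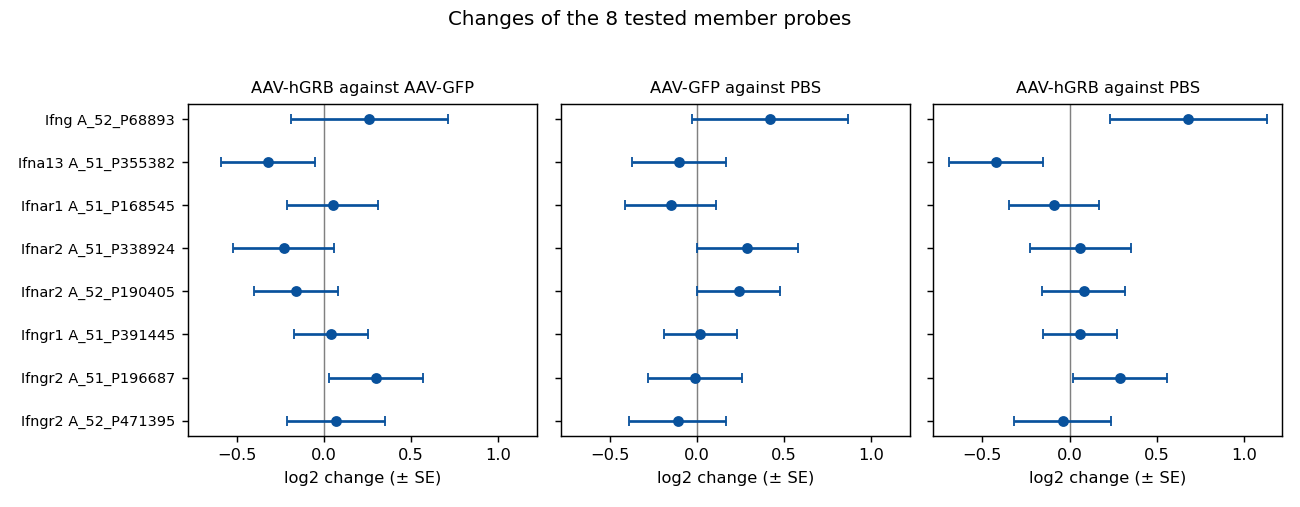
Log2 changes (horizontal axis) of the 8 tested member probes in the 3 comparisons, first group minus second, with bars of 1 SE from the limma fit. The points lie between -0.42 and 0.68, and the widest bars, 0.45, belong to Ifng.

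Downstream of the receptors, genes that interferon induces had higher measured levels in the AAV-hGRB samples, while the levels of the receptor genes overlapped. The list of 20 tested genes induced by type I interferon had a positive change from AAV-GFP to AAV-hGRB in all 20, with a median of 1.89. Bst2, a tether that holds budding virus on the cell, had a log2 difference of 0.69 (SE 0.30), Rtp4 of 1.77 (SE 0.34), Isg15, a ubiquitin-like protein, of 2.06 (SE 0.41) and Ifi27l2a of 1.21 (SE 0.55). The groups did not overlap for 15 of the 20, all higher in AAV-hGRB, beside 1.05% of all probes. limma called 0 of the 20. From PBS to AAV-GFP the median was 0.13 and 14 of 20 changes were positive, and from PBS to AAV-hGRB the median was 1.94 and all 20 were positive. In that last comparison the groups did not overlap for 17 of the 20, beside 2.14% of all probes.

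The level of that list ordered the AAV-hGRB arrays as Ifnb1 detection did. Its mean over 20 genes was 1.23, 2.72, 2.56 and 1.29 in AAV-hGRB replicates 1 to 4. In AAV-GFP it was -0.20, 0.06, 0.57 and 0.11, and in PBS -0.47, 0.28, -0.05 and 0.27. All 4 AAV-hGRB arrays lay above all 8 control arrays. The arrays with Ifnb1 above background, AAV-hGRB replicates 2 and 3, were the highest of the 12, but AAV-hGRB replicates 1 and 4 also lay above the controls with Ifnb1 signals of 4.6 and 6.1 units, in the range of the controls. Between replicates 2 and 3 the order was not the same, since replicate 3 had the brighter Ifnb1.

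**Figure D4:**
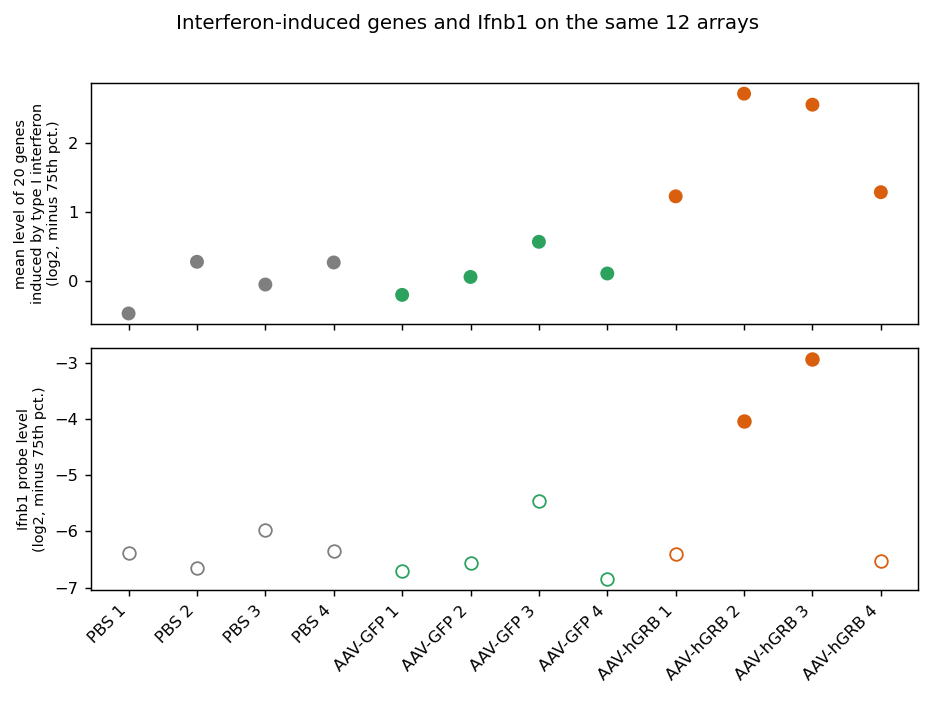
Mean level of 20 genes induced by type I interferon (upper panel) and level of the Ifnb1 probe (lower panel), both as log2 signal minus the array's 75th percentile, on the same 12 arrays; filled Ifnb1 points are well above background, open points are not. AAV-hGRB replicates 2 and 3 are highest in both panels, and AAV-hGRB replicates 1 and 4 are raised only in the upper one, at 1.23 and 1.29.

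Genes induced by interferon gamma had a smaller median. Of 18 tested, 16 had a positive change from AAV-GFP to AAV-hGRB, with a median of 0.74, and 0 were called. The groups did not overlap for 4 of the 18, beside 2.98% of all probes. Igtp, an interferon-inducible GTPase, had a log2 difference of 1.22 (SE 0.32) and Psmb8, an immunoproteasome subunit, of 0.60 (SE 0.29). Iigp1, a GTPase of the same kind, had a log2 difference of 0.21 (SE 0.31) and Irf1, an interferon-inducible transcription factor, of 0.07 (SE 0.25). Several of these genes also answer type I interferon. The mean over the list was 1.60, 2.41, 2.42 and 1.66 in AAV-hGRB, against 1.08 to 1.33 in AAV-GFP and 0.85 to 1.45 in PBS, so replicates 2 and 3 stood out here too.

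Among the kinases and factors that the receptors use, the transcription factors had the larger differences from AAV-GFP to AAV-hGRB. Irf9 had a log2 difference of 0.78 (SE 0.21) and Stat2 of 0.60 (SE 0.41). The kinases Tyk2, Jak2 and Jak1 had a log2 difference of 0.27 (SE 0.22), 0.20 (SE 0.19) and 0.07 (SE 0.18). All 5 values were positive, beside 43.5% of all probes, with a median of 0.27 and 0 called. The groups did not overlap for 1 of the 5, beside 2.98% of all probes. Stat2 and Irf9 are themselves known to be induced by interferon.

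Inhibitors of receptor signalling had a median of -0.03 over 11 genes from AAV-GFP to AAV-hGRB, 5 of them positive and 0 called. Among the brightest, the phosphatase Ptpn1 had a log2 difference of -0.23 (SE 0.33), the phosphatase Ptpn11 of 0.00 (SE 0.20), Pias2 of -0.21 (SE 0.15) and Socs3 of -0.27 (SE 0.55). Usp18, which binds Ifnar2 and blunts type I signalling, had a log2 difference of 2.23 (SE 0.38). It was singled out after its value was seen, and it also counts among the type I induced genes.

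Upstream of the ligands, 11 of 16 tested sensors and factors that induce interferon had a positive change from AAV-GFP to AAV-hGRB, with a median of 0.22 and 0 called. Zbp1, a nucleic acid sensor, had a log2 difference of 1.45 (SE 0.52). The adaptor Mavs had a log2 difference of 0.00 (SE 0.28), the factor Irf3 of -0.40 (SE 0.24) and the DNA sensor Tlr9 of -0.14 (SE 0.36). Irf7, Ddx58 and Dhx58 had a log2 difference of 2.49, 1.39 and 1.31, and were singled out after their values were seen. Irf7, the factor that carries the alpha interferon response, is also on the type I induced list, and all 3 are known to be induced by interferon. Which of the other genes of this list, Zbp1 among them, interferon also induces was not examined.

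**Figure D5:**
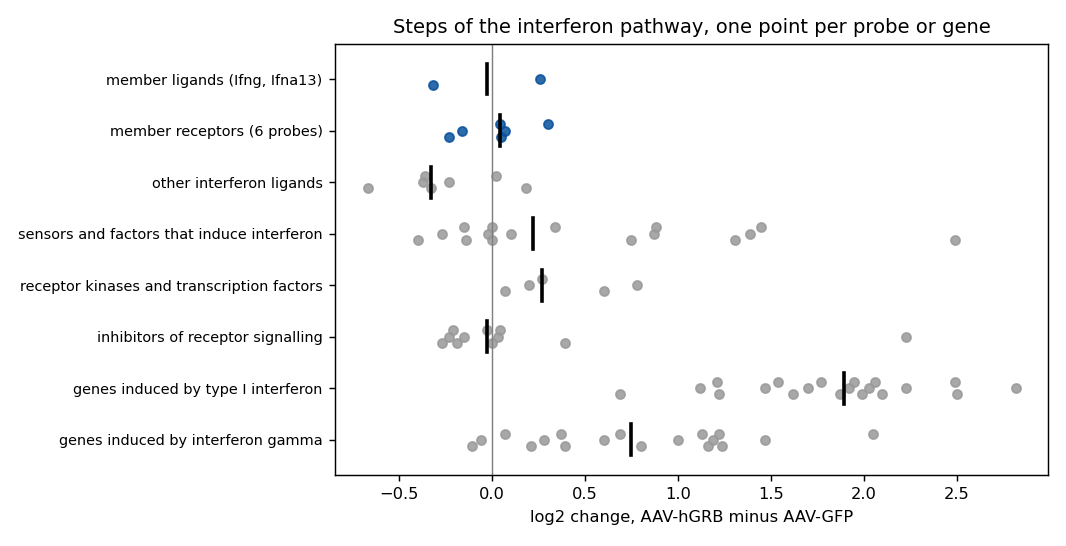
Log2 change from AAV-GFP to AAV-hGRB (horizontal axis) for the tested member probes (blue) and for the tested genes of each pathway list (grey), with a bar at the median of each row; some genes stand in more than 1 row. Member ligands and receptors lie between -0.32 and 0.30, and the genes induced by type I interferon have a median of 1.89.

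Markers of the cells that could make these ligands were set beside Ifnb1 in the same way. Kupffer cell and macrophage markers had a positive change from AAV-GFP to AAV-hGRB in 13 of 13, with a median of 0.32 and 0 called. From PBS to AAV-GFP 12 of 13 were positive (median 0.20), and from PBS to AAV-hGRB 13 of 13 (median 0.57). The shares over all probes were 43.5%, 50.6% and 42.8%. Their mean level was 2.24, 3.09, 3.31 and 2.78 in AAV-hGRB, 2.17 to 2.86 in AAV-GFP and 1.41 to 2.65 in PBS. Plasmacytoid dendritic cell markers had a median of 0.22 over 8 of 10, with Siglech, chosen after its values were seen, above background on 0 arrays and with Bst2 also on the type I list. Their mean level was 0.10 to 0.36 in AAV-hGRB, -0.55 to 0.47 in AAV-GFP and -0.31 to 0.30 in PBS. Neutrophil and B cell markers had medians of 0.37 and 0.33 over 5 genes each, and hepatocyte markers -0.09 over 9. Between the control groups the neutrophil markers differed more. From PBS to AAV-GFP their median was -1.18, 0 of 5 were positive, and 3 of the 5 had groups that did not overlap, beside 0.94% of all probes. From PBS to AAV-hGRB the median was -0.41, with 0 of 5 positive. Their mean level was -0.67 to -0.41 in PBS, -1.94 to -0.89 in AAV-GFP and -1.43 to -0.81 in AAV-hGRB. The part of any of these cells in the Ifnb1 signal was not tested.

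The genes that followed each member most closely over the 12 arrays were found by Pearson's r between log2 levels, over the brightest tested probe of 13616 genes. The points share the scaling of each array, and no test is given. Nearest to Ifng were Ripk3, a kinase of necroptotic cell death (r = 0.978), Nckap1l (0.95) and Abi3 (0.949). Nearest to Ifna13 were Olfr945, an olfactory receptor gene (0.962), Olig3 (0.959) and Olfr975 (0.943). Nearest to Ifnar1 were Tbl1xr1 (0.951), Pars2 (0.951) and Igsf11 (0.949), and nearest to Ifnar2 were Cep57 (0.94), Zfp764 (0.926) and Dalrd3 (0.916). Nearest to Ifngr1 were Cpm (0.939), Dlg1 (0.919) and Nkap (0.918), and nearest to Ifngr2 were Kctd12 (0.921), Jpt1 (0.919) and Cdc5l (0.916). No other member was among the 3 nearest of any member.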

How the data were processed

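RNA of 12 liver samples was hybridised to 1-colour Agilent arrays. The deposited scanner files hold spot intensity, from which Feature Extraction 9.5.3.1 had subtracted background, per the file headers (9.5 per the submitters' processing notes). The authors' series matrix equals that intensity for 540216 of 540216 values within a relative 1e-06. Control spots (1639) were left out, spots of a probe averaged, and each array's 75th percentile subtracted from log2 intensity. Spots flagged as outliers were left out of the average unless all spots of the probe were flagged. Multi-spot probes counted as well above background where 0.5 or more of the spots so kept were. All 12 arrays entered a limma 3.58.1 fit of 3 groups (R 4.3.3, statmod 1.5.0), two-sided, checked on simulated data. Probe positions are those of the array design (mm7), and names come from it or RefSeq. Where a gene has several probes, the brightest stands for it.

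The labels do not say that samples came from separate animals, so p-values cover only their own spread, which may be technical. The members and gene lists were chosen with earlier results of these data known, so member values are described and not tested on their own. Named genes are all members, 3 nearest genes each, and up to 4 of the brightest per list, with the kinases and factors; others are marked. A gene of the last list is not reported here and was left out of its counts. Alternatives covered background, scaling, filters, slides, replicate block, array weights, 2-group fits, the matrix values and left-out replicates.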

Additional observations from a re-analysis of the deposited data

Results flagged for a closer look

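Each member probe was examined in each group of 4 arrays, 30 groups in all, for an array standing apart from the other 3. In the AAV-hGRB group, replicate 3 had a level of 1.27 at the second Ifnar2 probe (A_51_P338924), below the 1.51, 1.51 and 1.54 of the other 3. Its gap to the nearest array was 0.861 of the group's range, above the 95% critical value of Dixon's test for 4 values. Chance flags about 1 in 20 groups, and this was 1 of 30. The brighter Ifnar2 probe was also lowest on that array within its group, at 3.91.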

How the results depend on the processing

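Member probes called numbered 0 in all 3 comparisons under every alternative run, and with the replicate number as a block (replicate block) the count was also 0. The same-numbered arrays did not consistently vary together (correlations of deviations from -0.434 to 0.594). The highest was between AAV-GFP replicate 3 and PBS replicate 3, which share slide 6. These correlations do not settle whether the numbers pair the samples. Over all probes, array weights called 67 in AAV-hGRB against PBS, where the fit without weights called 0. Without AAV-GFP replicate 3, 1954 probes had an unadjusted limma p under 0.05 from AAV-GFP to AAV-hGRB, against 892 with it, and 0 were called. Of 480 alternative values of member changes, 477 moved by less than 1 SD and 44 turned sign. Among the 477 are alternatives that cannot move a log2 change by construction, so that count does not measure robustness. These are the filters, the matrix values, the 2-group fits, the replicate block and leaving out an array of the third group. Those that moved were Ifnb1 in AAV-hGRB against AAV-GFP with normexp (0.27; the offset of 50 compresses low signals by construction), Ifnar1 in AAV-GFP against PBS with array weights (0.26) and Ifnar2 in AAV-hGRB against PBS with the slide as a block (-0.30). For the last 2 the cause was not tested. From AAV-GFP to AAV-hGRB the sign held in all alternatives run for Ifng (0.10 to 0.58), Ifna13 (-0.54 to -0.01) and Ifnar2 (-0.44 to -0.01), and turned in some for Ifnar1 (-0.24 to 0.22), Ifngr1 (-0.08 to 0.16) and Ifngr2 (-0.10 to 0.29). The measured Ifnb1 difference ran from 0.27 to 1.94. Its controls and AAV-hGRB replicates 1 and 4 carry only a bound, so these values do not settle a direction. Signal near background limits Ifnb1 and Ifng, and 4 arrays a group limit all members.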
